A study of Mus musculus with 4 samples.

Results

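The 38 genes described here are those of glycolysis and of the response to low oxygen. They were chosen by name: 15 glycolytic enzymes, 4 sugar and lactate transporters, 4 kinases that steer carbon flux, the factor HIF1A with 2 of the hydroxylases that sense oxygen, and 12 other genes known as targets of hypoxia-inducible factors (HIF). The choice was made with earlier results of these data known. Counts of members set beside shares of all genes therefore describe the list and are not independent support. All 38 were found among the 26130 genes listed for each library. RNA had been sequenced from mouse embryonic stem cells in 4 libraries, 1 for each combination of 2 lines and 2 genotypes. The lines were E14 (strain 129P2/OlaHsd) and JB1 (JF1/B6), and the genotypes were wild type and Zfp57-/-, the loss of a zinc finger protein that keeps methylation at imprinted loci. All 4 cultures were feeder-free, on gelatin, with serum and LIF, the cytokine that keeps such cells undifferentiated. The labels do not say how the knockout lines were derived or whether each was 1 clone.

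Glycolysis splits glucose to pyruvate in the cytosol, and lactate dehydrogenase turns pyruvate to lactate, so that the pathway can run without oxygen. Under low oxygen the prolyl hydroxylases of the EGLN family stop marking HIF1A for destruction, and the stabilised factor raises most genes of the pathway, along with genes of mitophagy, collagen maturation and vessel growth. Mouse embryonic stem cells are known to use both glycolysis and respiration, and to lean more on glycolysis as they pass from the naive to the primed state.

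Levels are given as RPM, a gene's reads for each 1000000 of the library total. RPM is not corrected for gene length. A gene was called measured in a line when it reached 1 RPM in either library. Differences are log2((knockout RPM + 1)/(wild-type RPM + 1)) within a line, a scale that understates the change of genes near 1 RPM. Counts of genes at least 2-fold higher or lower use this scale. Fold values given for single genes are ratios of RPM, and their 95% intervals are exact (Clopper-Pearson) intervals on reads that cover counting error only. Where a pair of values is given for a line, the wild type comes first. With 1 library per group, no difference within a line has a replicate check, and no p-value is given for it. A bulk level cannot tell fewer cells of a kind from less RNA per cell.

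The listed genes held between 26801865 and 66849394 reads per library. Zfp57 itself was 135 and 51.8 RPM in the E14 pair and 796 and 42.9 RPM in JB1, so both knockout libraries were below their wild type. Of 14 markers of pluripotent stem cells, all were measured in both lines, and their summed level was 4212 and 3967 RPM in E14 cells and 6494 and 5388 RPM in JB1. In the JB1 knockout, 3 of them were higher, 1 at least 2-fold (Utf1), and 11 were lower, 2 at least 2-fold (Klf4 and Fgf4). Summed over 12 primitive endoderm markers, the level was 18.7 and 17.0 RPM in E14 cells and 40.1 and 58.5 RPM in JB1. In JB1, 8 of 9 measured endoderm markers were higher in the knockout, 2 at least 2-fold, and the other was at −0.84. Foxa2 is on this list and also on the primed epiblast list below. Summed over 10 fibroblast markers, the level lay between 4.02 and 16.6 RPM, with Dcn at 0 reads in all 4 libraries. Those of trophoblast, mesoderm and neuroectoderm each summed to at most 21.6 RPM in any library, with Prl3d1 at 0 reads throughout. The 8 primed epiblast markers summed to 84.6 and 108 RPM in E14 and to 98.1 and 256 RPM in JB1. Most of that sum was the DNA methyltransferases Dnmt3a and Dnmt3b, and Fgf5 stayed at or below 1.08 RPM. Of the primed epiblast markers measured, 5 of 6 were higher in the JB1 knockout, 2 at least 2-fold, with a median difference of 0.81. The other, the transcription factor gene Otx2, was lower, at −0.31. In E14, 4 of 5 were higher, none 2-fold, with a median of 0.18 (53.5% of all genes measured in E14 were higher). These markers differed in JB1 alongside the glycolytic enzymes, and their part in the results below was not tested.

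In the JB1 knockout library, all 15 glycolytic enzymes were higher than in the wild type, and 10 of them at least 2-fold higher. Among all 13132 genes measured in JB1, 2.5% were higher by that much and 1.58% were lower by it. In E14, 13 of the 15 enzymes were higher and none reached 2-fold, where 0.953% of 12276 genes were at least 2-fold higher. The median difference of the 15 enzymes was 1.06 in JB1 and 0.38 in E14, beside 0.01 and 0.02 over all measured genes. Their summed level was 2938 and 3522 RPM in E14, 1.199-fold higher, while in JB1 it was 3400 and 7218 RPM, 2.12-fold higher.

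**Figure D1:**
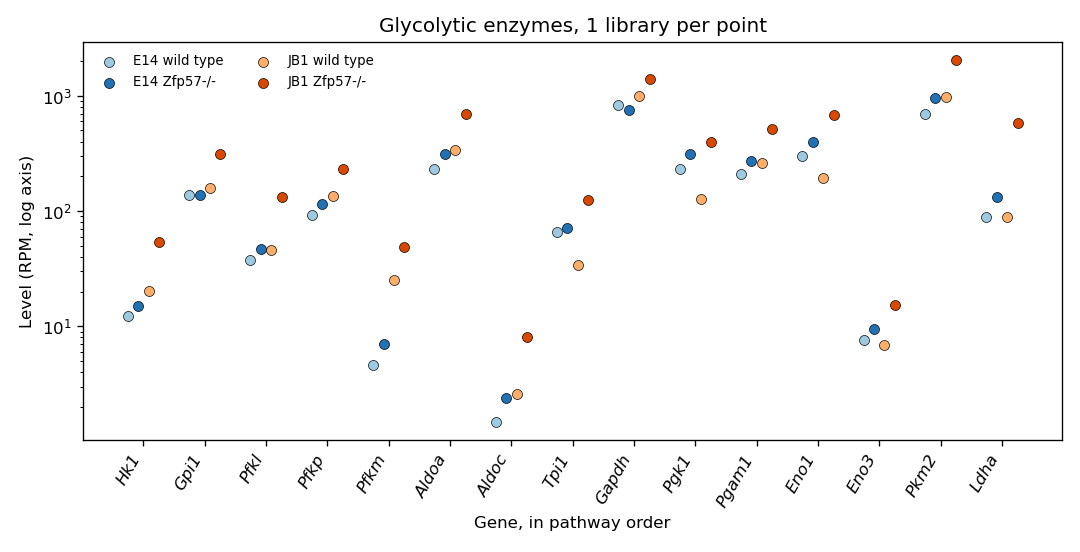
Level in RPM on a log axis of the 15 glycolytic enzymes, ordered along the pathway, with 1 point for each of the 4 libraries. The JB1 knockout point is the highest of the 4 for all 15 genes as deposited (14 when scaled to the listed genes, Pgk1 excepted), from 8.08 RPM for Aldoc to 2019 RPM for Pkm2.

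Lactate dehydrogenase A, which makes lactate from pyruvate, had the largest JB1 difference of all members. Ldha (chromosome 7, 54096845 to 54110997, mm9) was 88.6 and 132 RPM in E14 cells and 88.4 and 585 RPM in JB1. As deposited, the wild types of both lines were nearly level, and the JB1 knockout stood apart from the other 3 libraries. The JB1 fold was 6.62 (95% interval 6.45 to 6.80), and the gene had rank 5 of 13132 by difference. In E14 the fold was 1.49 (1.44 to 1.54), rank 504 of 12276.

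Tpi1, Eno1 and Pgk1 had the next largest JB1 differences of the 15 enzymes. Tpi1, triose phosphate isomerase (chromosome 6, 124760604 to 124764314), was 65.6 and 71.8 RPM in E14 cells and 34.2 and 124 RPM in JB1, 3.63-fold higher in the latter (3.47 to 3.79). Eno1, enolase (chromosome 4, 149610830 to 149622988), was 300.1 and 397 RPM in E14 cells and 195 and 680.0 RPM in JB1, 3.49-fold higher (3.43 to 3.56). Pgk1, phosphoglycerate kinase (chromosome X, 103382439 to 103399038), was 230 and 314 RPM in E14 cells and 126 and 396 RPM in JB1, 3.15-fold higher (3.07 to 3.22). All 3 genes had their lowest level of the 4 libraries in JB1 wild type and their highest in the JB1 knockout, except that Pgk1 scaled to the listed genes was highest in the E14 knockout. In E14 the folds of Tpi1, Eno1 and Pgk1 were 1.10, 1.32 and 1.37.

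The enzymes of the upper pathway differed in size. Hk1, a hexokinase that commits glucose to the cell (chromosome 10, 61731603 to 61842656), was 12.2 and 15.0 RPM in E14 cells and 20.3 and 53.3 RPM in JB1, 2.62-fold higher (2.47 to 2.78). Pfkl, the liver form of phosphofructokinase (chromosome 10, 77449692 to 77472828), was 37.5 and 46.7 RPM in E14 cells and 45.9 and 133 RPM in JB1, 2.91-fold higher (2.80 to 3.02). The muscle form Pfkm was 4.64 and 7.03 RPM in E14 cells and 25.4 and 48.4 RPM in JB1, and the platelet form Pfkp was 93.0 and 116 RPM in E14 cells and 135 and 233 RPM in JB1. These forms were 1.91- and 1.73-fold higher in JB1, short of the 2-fold limit. Gpi1, glucose phosphate isomerase, was 137 RPM in both E14 libraries and 158 and 309 RPM in JB1.

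Pyruvate kinase, the main aldolase and the mutase lay nearer to 2-fold. Pkm2, pyruvate kinase (chromosome 9, 59504383 to 59527182), was 687 and 948 RPM in E14 cells and 965 and 2019 RPM in JB1, 2.09-fold higher (2.08 to 2.11). Aldoa, the main aldolase (chromosome 7, 133938748 to 133944265), was 233 and 311 RPM in E14 cells and 341 and 694 RPM in JB1, 2.04-fold higher (2.01 to 2.07). Pgam1, phosphoglycerate mutase, was 208 and 270.1 RPM in E14 cells and 259.7 and 518 RPM in JB1. Its difference of 0.99 lay just under the 2-fold limit, as did 0.97 for Gpi1, while those of Aldoa (1.03), Eno3 (1.04), Ankrd37 (1.04) and Pkm2 (1.06) lay just above it. Gapdh, which oxidises glyceraldehyde phosphate, was 834 and 744 RPM in E14 cells and 998 and 1401 RPM in JB1, 1.403-fold higher, the smallest JB1 difference of the 15 enzymes at 0.49. The forms of muscle and brain were low in all libraries: Eno3 was 7.57 and 9.49 RPM in E14 cells and 6.88 and 15.2 RPM in JB1. Aldoc was 1.47 and 2.36 RPM in E14 cells and 2.60 and 8.08 RPM in JB1.

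Ldha, Eno1, Pgk1, Gapdh, Tpi1, Aldoa, Pgam1 and Pkm2 are known for processed pseudogenes or near-identical copies, so their reads are uncertain to that extent. Gm5506, a retrogene copy named Eno1b in RefSeq, had 191 and 262 RPM in E14 cells and 99.3 and 349 RPM in JB1. Its JB1 fold of 3.52 was close to the 3.49 of Eno1, and how reads were divided between the pair is not given in the sources used here. Aldoart1, a copy of Aldoa, had 3.25 and 4.10 RPM in E14 cells and 3.54 and 7.51 RPM in JB1. Without the 8 members named, 10 of the 28 members measured in JB1 were at least 2-fold higher, and their median was 0.63.

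Promoter sequences are shown for the 6 members with the highest JB1 fold among those at least 2-fold higher that reached 100 RPM in some library and held a HIF core match. The 250 bases before each RefSeq start were searched on both strands for ACGTG and GCGTG, the core letters that HIF is known to bind, and matches are in capitals. On the strand printed, a match on the opposite strand reads CACGT or CACGC. The palindrome CACGTG, an E-box known to be bound by MYC and its relatives, holds ACGTG on both strands and counts as 2 matches. Where a gene had several starts, the window with most matches is shown, 5′ to 3′.

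Ldha promoter, GRCm38.p6 chr7:46845554-46845803, plus strand: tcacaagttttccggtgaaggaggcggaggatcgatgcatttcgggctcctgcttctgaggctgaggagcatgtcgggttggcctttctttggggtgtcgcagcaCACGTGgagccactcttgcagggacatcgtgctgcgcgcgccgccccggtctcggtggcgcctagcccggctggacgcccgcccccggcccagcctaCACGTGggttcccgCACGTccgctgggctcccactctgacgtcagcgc
Pdk1 promoter, GRCm38.p6 chr2:71872974-71873223, plus strand: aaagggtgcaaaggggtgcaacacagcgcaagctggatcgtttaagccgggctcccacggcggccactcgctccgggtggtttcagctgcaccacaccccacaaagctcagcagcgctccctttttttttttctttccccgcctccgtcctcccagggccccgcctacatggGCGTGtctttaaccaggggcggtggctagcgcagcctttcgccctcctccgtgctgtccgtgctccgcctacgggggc
Eno1 promoter, GRCm38.p6 chr4:150236947-150237196, plus strand: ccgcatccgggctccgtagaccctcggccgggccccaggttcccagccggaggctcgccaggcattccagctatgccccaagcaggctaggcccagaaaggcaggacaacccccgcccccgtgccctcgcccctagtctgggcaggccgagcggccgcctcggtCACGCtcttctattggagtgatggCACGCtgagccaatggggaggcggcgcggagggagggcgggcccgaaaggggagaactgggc
Pgk1 promoter, GRCm38.p6 chrX:106186850-106187099, plus strand: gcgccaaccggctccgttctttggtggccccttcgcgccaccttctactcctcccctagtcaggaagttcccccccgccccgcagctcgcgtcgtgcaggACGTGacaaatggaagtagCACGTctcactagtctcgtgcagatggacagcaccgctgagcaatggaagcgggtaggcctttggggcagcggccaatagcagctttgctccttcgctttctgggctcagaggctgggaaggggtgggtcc
Pfkl promoter, GRCm38.p6 chr10:78009808-78010057, minus strand: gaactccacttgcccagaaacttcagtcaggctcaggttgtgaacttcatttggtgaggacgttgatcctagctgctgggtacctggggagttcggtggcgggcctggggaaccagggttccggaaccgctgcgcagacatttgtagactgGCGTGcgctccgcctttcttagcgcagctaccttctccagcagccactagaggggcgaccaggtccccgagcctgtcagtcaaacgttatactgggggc
Slc2a1 promoter, GRCm38.p6 chr4:119108495-119108744, plus strand: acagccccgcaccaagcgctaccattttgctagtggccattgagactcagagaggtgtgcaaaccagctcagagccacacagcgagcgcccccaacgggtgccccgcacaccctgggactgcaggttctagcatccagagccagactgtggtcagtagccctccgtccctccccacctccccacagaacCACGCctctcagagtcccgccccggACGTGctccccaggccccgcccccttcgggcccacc

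Ldha had 5 matches, all of them ACGTG, in 2 CACGTG palindromes and 1 site on the opposite strand, the nearest 29 bases before the start. Pgk1 had 2 ACGTG matches. Slc2a1 had 1 ACGTG and 1 GCGTG match, the nearest 31 bases before the start. The single match of Pdk1, the single match of Pfkl and both matches of Eno1 were GCGTG. Of the 36 members with a RefSeq promoter, 34 held a match in some window, or 94.4%, against 41.5% of all 27025 genes in the table. Among other genes measured in JB1 the share was 61.9%, and among other genes at least 2-fold higher in JB1 it was 51.2%. ACGTG alone was found in 63.9% of the members and in 25.4% of other genes measured in JB1. Many members were listed because they are known HIF targets, so these shares describe the list. Among the 16 members at least 2-fold higher in JB1, 15 held a match, all but Tpi1. That share of 93.75% was near the 94.4% of all members with a promoter. ACGTG alone was found in 56.25% of the 16, beside 63.9% of all members.

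The transporters did not go one way. Slc2a1 (GLUT1), a glucose transporter that HIF is known to raise (chromosome 4, 118781316 to 118809935), was 49.8 and 50.2 RPM in E14 cells and 68.8 and 174 RPM in JB1, 2.53-fold higher in JB1 (2.45 to 2.61). Slc2a3 (GLUT3), a glucose transporter of high affinity (chromosome 6, 122677827 to 122751658), was 930.1 and 626 RPM in E14 cells and 875 and 616 RPM in JB1. It was 1.49-fold lower in the E14 knockout (1.47 to 1.51) and 1.42-fold lower in JB1 (1.403 to 1.435). Both knockout libraries lay below both wild-type libraries for Slc2a3.

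Of the lactate carriers, Slc16a3 (MCT4), which exports lactate (chromosome 11, 120809794 to 120822182), was 2.63 and 6.39 RPM in E14 cells and 3.48 and 12.2 RPM in JB1. It was 2.43-fold higher in E14 (2.00 to 2.97) and 3.51-fold higher in JB1 (3.05 to 4.04), and it was the only member at least 2-fold higher in E14. Slc16a3 overlaps Csnk1d on the opposite strand over 2404 bases, and Csnk1d went the other way, at 73.8 and 67.6 RPM in E14 cells and 121 and 94.1 RPM in JB1. Ends of other members overlap neighbours as well, Pfkp with Pitrm1 over 372 bases, Pfkm with Senp1 over 817 and Ankrd37 with Ufsp2 over 57. Ankrd37 also overlaps Lrp2bp over 565 bases on the opposite strand. Lrp2bp was 0.0396 and 0.0141 RPM in E14 cells and 0.01445 and 0.309 RPM in JB1. Whether counting used the strand, the sources used here do not say, so reads in these overlaps are uncertain. Slc16a1 (MCT1), the more abundant of the pair per length in all 4 libraries, was 92.7 and 86.0 RPM in E14 cells and 57.8 and 84.9 RPM in JB1.

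The kinases that direct pyruvate and fructose phosphates did not go together. Pdk1, which shuts pyruvate dehydrogenase and so keeps pyruvate out of the mitochondria (chromosome 2, 71711281 to 71741915), was 73.2 and 59.8 RPM in E14 cells and 28.7 and 107 RPM in JB1. It was 3.74-fold higher in the JB1 knockout (3.57 to 3.93) and 1.22-fold lower in the E14 knockout (1.17 to 1.28). Pdk3, another kinase of that complex, was 14.7 and 15.9 RPM in E14 cells and 21.8 and 24.6 RPM in JB1. Pfkfb3 and Pfkfb4 set the level of the activator of phosphofructokinase. Pfkfb3 was 7.05 and 8.25 RPM in E14 cells and 12.7 and 16.4 RPM in JB1, and Pfkfb4 was 1.64 and 1.34 RPM in E14 cells and 3.64 and 3.04 RPM in JB1. Of these 4 kinases, Pdk1 alone reached 2-fold in JB1.

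**Figure D2:**
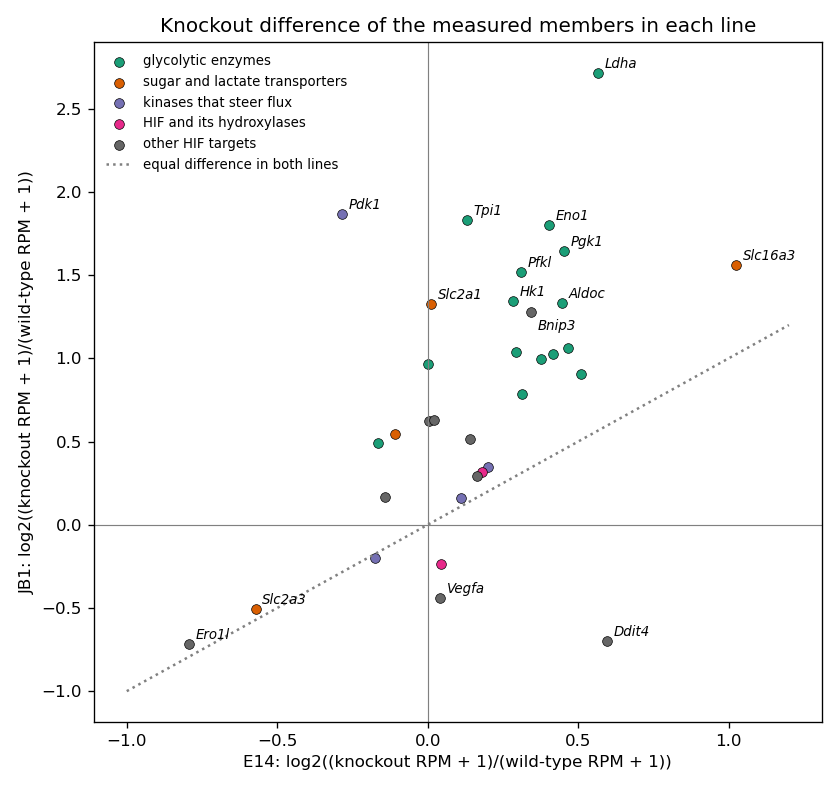
Knockout difference on the log2(RPM + 1) scale in E14 (horizontal) and JB1 (vertical) for the 34 members measured in both lines, coloured by role, with 1 library per group. Of these, 30 lie above the dotted line of equal differences, with Ldha at 2.71 in JB1 and 0.57 in E14, while Ero1l and Slc2a3 are low in both lines and Ddit4 is higher in E14 and lower in JB1.

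The mRNA of the factor itself was slightly lower in the JB1 knockout. Hif1a (chromosome 12, 75002362 to 75048517) was 186 and 192 RPM in E14 cells and 165 and 139.7 RPM in JB1, 1.18-fold lower in JB1 (1.15 to 1.21). HIF1A is known to be regulated mainly as a protein, which these data do not measure. Egln3, a hydroxylase that is itself a HIF target, was 0.753 and 0.948 RPM in E14, below the 1 RPM limit, and 4.62 and 11.2 RPM in JB1, 2.43-fold higher (2.14 to 2.76). Egln1, the main oxygen sensor, was 4.89 and 5.67 RPM in E14 cells and 15.1 and 19.0 RPM in JB1, 1.26-fold higher in JB1.

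The 12 other HIF targets went both ways, with a summed level of 148 and 150.1 RPM in E14 cells and 458 and 349.8 RPM in JB1. In JB1, 10 were measured, 7 were higher and 2 at least 2-fold higher (51.5% and 2.5% of all genes measured in JB1 were). Bnip3, a mitophagy receptor (chromosome 7, 146082519 to 146101202), was 10.9 and 14.05 RPM in E14 cells and 4.34 and 11.9 RPM in JB1, 2.76-fold higher in JB1 (2.43 to 3.14). Ankrd37, an ankyrin repeat gene, was 0.634 and 0.509 RPM in E14 cells and 0.621 and 2.33 RPM in JB1, 3.75-fold higher on 43 and 226 reads (2.70 to 5.32). The collagen prolyl hydroxylases were between these and no difference: P4ha1 was 7.61 and 7.62 RPM in E14 cells and 8.25 and 13.3 RPM in JB1. P4ha2 was 3.82 and 4.31 RPM in E14 cells and 7.90 and 11.7 RPM in JB1. Ndrg1, a stress-responsive gene, was 8.30 and 8.45 RPM in E14 cells and 7.76 and 12.6 RPM in JB1. These 3 were 1.61-, 1.48- and 1.62-fold higher in JB1, and in E14 their intervals included 1. Higd1a, a mitochondrial protein, was 21.8 and 24.5 RPM in E14 cells and 27.8 and 34.2 RPM in JB1. Mxi1, an antagonist of MYC, was 7.63 and 6.82 RPM in E14 cells and 14.6 and 16.5 RPM in JB1.

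Vegfa, Ddit4 and Ero1l were lower in the JB1 knockout. Vegfa, the vessel growth factor (chromosome 17, 46153942 to 46169326), was 24.6 and 25.3 RPM in E14 cells and 85.5 and 62.7 RPM in JB1, 1.36-fold lower in JB1 (1.31 to 1.41). Ddit4, an inhibitor of mTORC1 (chromosome 10, 59412423 to 59414518), was 23.5 and 36.1 RPM in E14 cells and 189.9 and 117 RPM in JB1. It was 1.53-fold higher in E14 (1.43 to 1.64) and 1.63-fold lower in JB1 (1.59 to 1.67). Ero1l, an oxidase of the endoplasmic reticulum (chromosome 14, 45902879 to 45938237), was 38.6 and 21.9 RPM in E14 cells and 111 and 67.1 RPM in JB1. It was 1.77-fold lower in E14 (1.65 to 1.89) and 1.65-fold lower in JB1 (1.60 to 1.71), and of the 34 members measured in both lines it had the lowest difference in each. Adm and Car9, a peptide hormone and a carbonic anhydrase often used as hypoxia markers, were below 1 RPM in all 4 libraries. Adm had 19, 18, 7 and 18 reads in E14 wild type, E14 knockout, JB1 wild type and JB1 knockout, and Car9 had 6, 19, 8 and 50 reads.

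Over all roles, 30 of the 36 members measured in JB1 were higher. Of the 36, 16 were at least 2-fold higher and none at least 2-fold lower (2.5% and 1.58% of all genes measured in JB1). At 1.5-fold, 22 were higher and 2 lower (9.91% and 6.52% of all genes measured in JB1). The median difference was 0.94. In E14, 26 of 34 were higher, with a median of 0.17. At 2-fold, 1 was higher and none lower (0.953% and 0.269% of all genes measured in E14). At 1.5-fold, 2 were higher and 1 lower (3.81% and 2.27% of all genes measured in E14). Of all measured genes, 51.5% were higher in JB1 and 53.5% in E14. Of the 34 members measured in both lines, 23 were higher in both (30.6% of 11890 genes measured in both were so), 3 were lower in both, 5 were higher in JB1 and lower in E14, and 3 were the reverse. Slc2a1 and P4ha1 had E14 differences of 0.01 and 0.00 and turned negative when scaled to the listed genes or centred on the median. Whether the lines differed could not be tested, since the interaction leaves no residual degree of freedom.

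**Figure D3:**
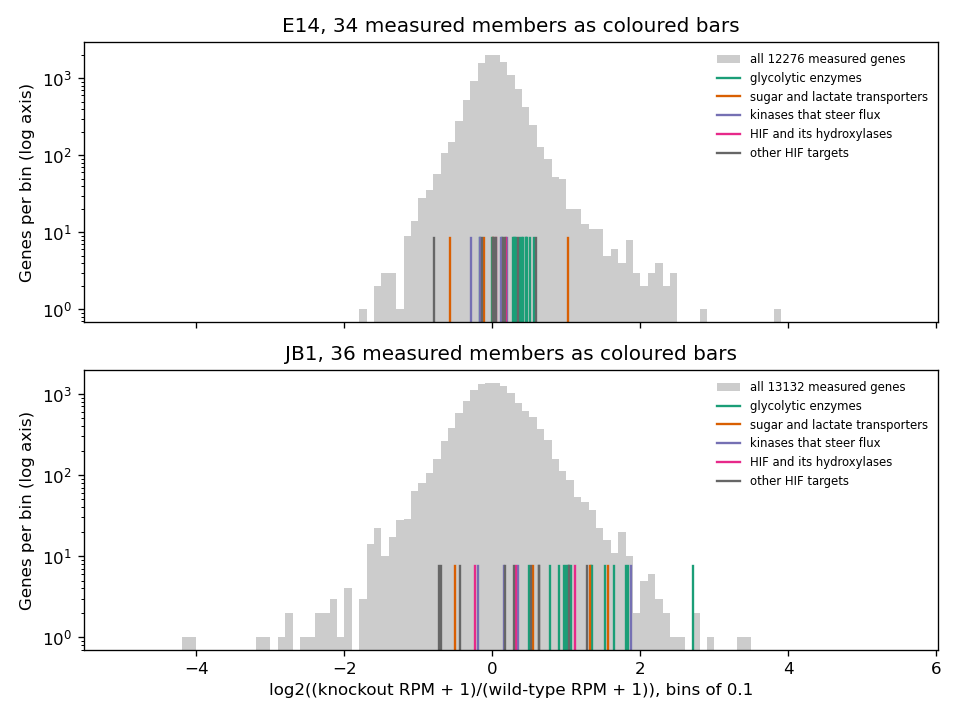
Number of genes per bin of 0.1 (log axis) against the knockout difference on the log2(RPM + 1) scale, for all genes measured in E14 (top, 12276) and JB1 (bottom, 13132), with measured members as coloured bars. The members lie around the centre in E14, with a median of 0.17, and mostly to its right in JB1, with a median of 0.94.

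Some members lie in parts of the genome that were lower as a whole in the E14 knockout. Genes of chromosome 6 had a median of −0.28 in the E14 knockout over 548 measured genes, and those between 41 and 77 Mb of chromosome 14 a median of −0.63 over 231. In JB1 the same medians were 0.06 and −0.01. Of the members on chromosome 6, Tpi1 (0.13) and Gapdh (−0.16) lay above the chromosome's median in E14 and Slc2a3 (−0.57) below it. Ero1l, in the chromosome 14 region, was at −0.79. Its JB1 difference of −0.72 and that of Slc2a3, −0.50, stood beside region medians near 0. Without these 4 members the E14 median was 0.24.

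The shared effect of the genotype was also fitted over both lines with limma on log2(RPM + 1), with line as a term and 1 residual degree of freedom. No gene of 12644 tested passed a Benjamini-Hochberg adjusted p of 0.05, so 0% were called, and the smallest adjusted p was 0.623. At an unadjusted p under 0.05 there were 1005 genes, or 7.95%, and 17 of the 36 members tested. Of these members 15 were higher, as were 5.01% of all genes at that p. Ldha had a shared difference of 1.64 (SE 0.45, limma adjusted p = 0.623). Slc16a3 had 1.29 (SE 0.22, limma adjusted p = 0.623) and Ero1l −0.75 (SE 0.15, limma adjusted p = 0.623). Their unadjusted limma p, 0.000989 and 0.00205, were the smallest of the 36. For Pdk1, which went opposite ways, the shared value was 0.79 (SE 0.45, limma adjusted p = 0.662).

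Between wild types, JB1 was not uniformly above or below E14. The lines come from separate tables, and the listed genes held 53.1% of the E14 wild-type total but 68.6% of the JB1 total, so levels set across lines depend on the scaling. Of the 34 members measured in both lines, 11 were lower in JB1 wild type than in E14 wild type, and 17 were so when scaled to the listed genes. Pdk1, Bnip3, Tpi1 and Pgk1 had JB1 wild-type levels 0.392, 0.399, 0.522 and 0.548 times those of E14. Scaled to the listed genes, these were 0.304, 0.309, 0.404 and 0.425. At the other end, Ddit4 was 8.07-fold, Pfkm 5.47-fold and Vegfa 3.48-fold higher in JB1 wild type. Scaled to the listed genes, these were 6.25-, 4.24- and 2.70-fold. Egln3, which was below the 1 RPM limit in E14, was 6.14-fold higher, or 4.76-fold when scaled. With 1 library per line, this comparison has no replicate check either.

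The balance of isozymes was compared per length, as RPM per kb of the longest principal transcript. Among lactate dehydrogenases, Ldha made up 28.1% and 52.1% of the family in E14 and 62.2% and 84.2% in JB1. Ldhb, the form that favours pyruvate (chromosome 6, 142438769 to 142456477), was 166 and 86.6 RPM in E14 cells and 39.3 and 80.1 RPM in JB1, so the higher Ldha share came with lower Ldhb in E14 and with higher Ldhb in JB1. Ldhb and Hk2 both lie on chromosome 6. Among the 2 glucose transporters, Slc2a1 held 6.11% and 8.89% in E14 and 8.72% and 25.5% in JB1. Hk2 remained the main hexokinase, with 92.5% and 87.8% in E14 and 86.4% and 73.0% in JB1, at 217 and 156 RPM and at 187 and 207 RPM. Among the 4 pyruvate dehydrogenase kinases, Pdk1 held 62.3% and 57.2% in E14 and 29.6% and 58.1% in JB1. Aldoa held over 99% of aldolase in all 4 libraries. These shares have no replicate check.

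**Figure D4:**
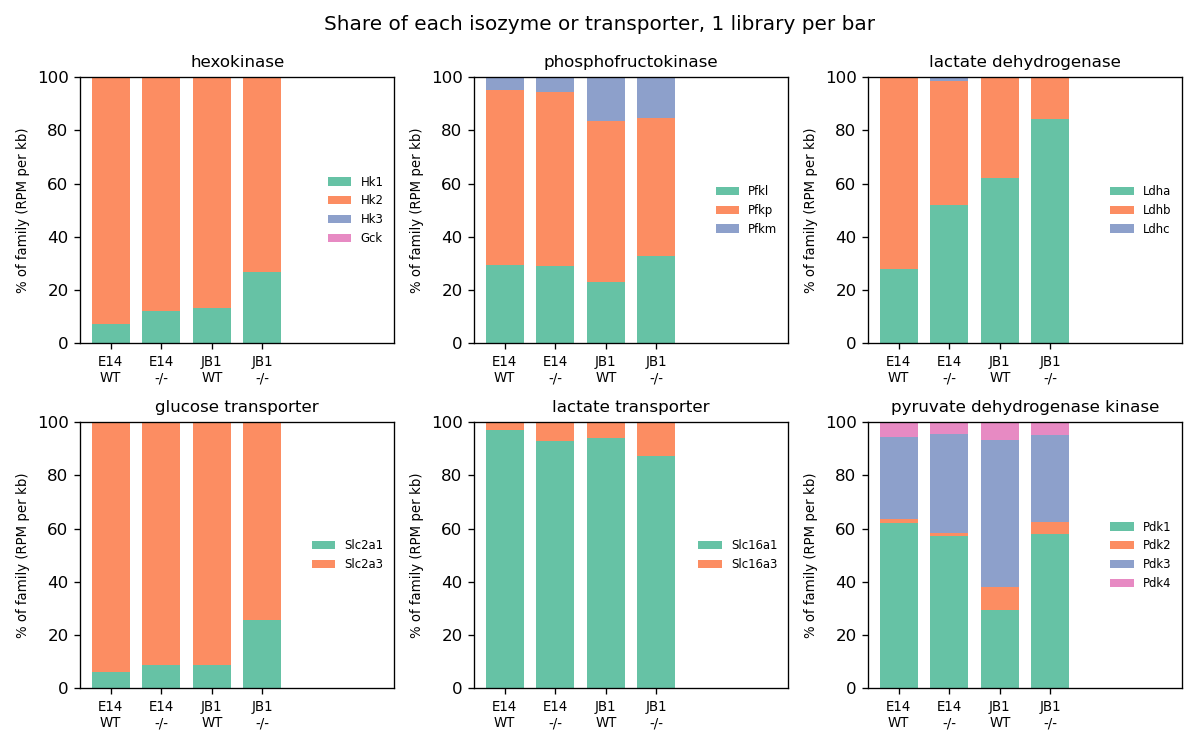
Share in percent of each isozyme or transporter within its family, from RPM per kb, with 1 bar per library (WT, wild type; -/-, Zfp57-/-). The Ldha share is lowest in E14 wild type at 28.1% and highest in the JB1 knockout at 84.2%, and the Slc2a1 share is near 9% or below in 3 libraries and 25.5% in the JB1 knockout.

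Other genes of these pathways were counted from lists of their own. Of 28 further hypoxia targets measured in JB1, 16 were higher and 2 at least 2-fold higher on the log2(RPM + 1) scale. The shares over all genes measured in JB1 were 51.5% and 2.5%. The summed level of the list was 1150 and 1117 RPM in JB1. The 2 genes were Bhlhe40, a clock repressor (6.28 and 4.47 RPM in E14, 6.62 and 17.5 RPM in JB1), and the cytokine Mif (58.5 and 88.7 RPM in E14, 46.5 and 106 RPM in JB1). By ratio of RPM, Selenbp1 was also 2.83-fold higher in JB1 (0.881 and 2.49 RPM), while Gys1 and Stc2 were each 1.97-fold lower. Of 11 further HIF pathway components, 5 were higher and none was 2-fold apart on that scale in JB1, although Arnt2 was 2.08-fold lower by ratio of RPM (5.69 and 2.74 RPM). Epas1, which encodes HIF2A, was 10.1 and 12.3 RPM in E14 cells and 69.2 and 108 RPM in JB1. Arnt, the partner of HIF1A, was 70.6 and 61.7 RPM in E14 cells and 73.9 and 56.3 RPM in JB1. Vhl, which marks HIF for destruction, was 18.4 and 15.0 RPM in E14 cells and 20.5 and 16.3 RPM in JB1.

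In the pathways that meet glycolysis, no gene was 2-fold apart in either line. In JB1, 15 of 16 genes of the citric acid cycle were higher with a median of 0.32, as were 48 of 60 nuclear genes of oxidative phosphorylation with a median of 0.26 and 5 of 7 of the pentose phosphate pathway with a median of 0.54. In E14, 9 of 16, 55 of 60 and 6 of 7 of these genes were higher, with medians of 0.01, 0.20 and 0.27. Over all measured genes, the share higher was 51.5% in JB1 and 53.5% in E14, with medians of 0.01 and 0.02. The 9 of 16 in E14 was near that share. Of 11 genes of pyruvate dehydrogenase and pyruvate import, 9 were higher in JB1 with a median of 0.10. Among 4 measured gluconeogenesis genes, 3 were lower in JB1 (median −0.28) and 3 were higher in E14 (median 0.16). Of the Myc family, Myc was 3.31 and 2.70 RPM in E14 cells and 12.0 and 23.7 RPM in JB1, and Mycn was 30.1 and 23.7 RPM in E14 cells and 94.99 and 64.5 RPM in JB1. The 7 isozymes outside the set that were measured in JB1 had a median of 0.15, with Ldhb 2.04-fold higher. In E14, 4 of 5 such isozymes were lower, with a median of −0.64 and a summed level of 396 and 253 RPM. The lower ones, Hk2, Eno2, Ldhb and Bpgm, all lie on chromosome 6, where the E14 median was −0.28 over 548 measured genes.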

How the data were processed

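RNA sequencing of 4 libraries, 1 per line and genotype, was analysed from the authors' deposited tables, 1 per line. Their values are log2 RPM, in which a gene without reads was written as 0.9 of a read. The deposited log2 values gave whole reads for 100% of genes with reads, within a relative tolerance of 0.0001. The submitters' processing notes name TopHat2 2.0.8b, cutadapt, CASAVA 1.8.2 and the build mm9. The sources used here give no annotation, counting tool or strand setting. The totals implied by the values ran from 50478922 to 96996280 reads, so 1 RPM was 50.5 to 97.0 reads and 0 reads allowed up to 0.0594 RPM (3 reads) in the shallowest.

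Differences used a pseudocount of 1 RPM and a filter of 1 RPM in either library. limma 3.58.1 (R 4.3.3) was fitted on log2(RPM + 1) at a mean of at least 1 RPM, with line and genotype. It used a mean-variance trend and 5.28 prior degrees of freedom. The fit was first run on simulated data with less noise than the fit found here, so that check does not show what could be called in these data. The SE and p-values of limma combine how far the lines differed for a gene with the variance trend over all genes. They do not measure spread between replicates of a line. Count models were planned only for tables of raw counts and were not run on log2 RPM, although whole reads could be recovered. The members, lists and chromosome regions were chosen with earlier results of these data known. Every member is named, and of other lists genes at least 2-fold apart in a line at 5 RPM or more. Hk2, Epas1, Arnt, Vhl, Myc, Mycn and the markers were added after their values were seen. Selenbp1, under 5 RPM, and Gys1 and Stc2, under 2-fold, are named as well although they fall outside this rule. Promoters (GRCm38.p6) were matched to RefSeq by symbol for 36 of 38 members, with Pkm2 as Pkm and Ero1l as Ero1a. Transcript lengths are from GENCODE M21, and gene coordinates are mm9 as deposited. Alternatives covered the pseudocount, filters, scaling, the fold limit, left-out members and the trend.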

Additional observations from a re-analysis of the deposited data

Results flagged for a closer look

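Gapdh, Slc16a1, Pdk1, Hif1a and Ddit4 went opposite ways in the lines, with counting intervals on opposite sides of no change. The JB1 difference minus the E14 difference, on the log2(RPM + 1) scale, was 2.15 for Pdk1 (1.87 in JB1 and −0.29 in E14), 0.66 for Slc16a1 (0.55 and −0.11) and 0.65 for Gapdh (0.49 and −0.16). It was −1.29 for Ddit4 (−0.70 and 0.59) and −0.28 for Hif1a (−0.24 and 0.05). The E14 fold interval of Hif1a starts at 1.005, and it includes 1 once scaled to the listed genes or centred on the median of all genes. Each line had 1 library per genotype, so the difference between lines was not tested. Gapdh lies on chromosome 6, whose E14 median was −0.28.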

How the results depend on the processing

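The 16 members at least 2-fold higher in JB1 became 11 with a pseudocount of 5, 15 with a filter of 5 RPM, 22 at a fold of 1.5 and 10 without the 8 genes known for pseudogenes. The JB1 median of 0.94 moved to 0.76 with a pseudocount of 5 and to 0.63 without those 8 genes, and stayed between 0.84 and 0.98 under the other alternatives run. The 1 member at least 2-fold higher in E14 became 0 with a pseudocount of 5 and 2 at a fold of 1.5. At that fold 1 member was lower in E14 and 2 in JB1, where 0 were lower at 2-fold. The E14 median of 0.17 stayed between 0.13 and 0.24. limma called 0 members under all 7 alternatives. Of 76 member differences, scaling to the listed genes changed the sign of 2, Slc2a1 and P4ha1 in E14. The limma fit, with line as a term, compares the genotypes within lines. No fit with a replicate block was possible because each group is 1 library. Depth limits the low members. Adm and Car9 rest on 6 to 50 reads, Ankrd37 on 43 in JB1 wild type, and the E14 interval of Slc16a3 starts at 1.996, under 2-fold.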
